A study of Homo sapiens with 10 samples.

Results

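The dedifferentiation and invasive matrix genes are a set of 39 genes that melanoma cells use when they leave the pigmented state and become motile. The rule that defines the set names the main Ensembl transcript for 6 of them: AXL, NGFR, WNT5A, EGFR, SOX9 and TIMP3. All 6 transcripts were found among the 187626 that each table lists, and the results below concern them. The pairing of these transcripts with their genes is that of the rule and was not checked against an annotation here. The other 33 genes have no transcript named by the rule, and no table joining Ensembl transcripts to genes was used here, so they were not analysed. They are the integrins ITGA2, ITGA3, ITGA5, ITGB1, ITGB3 and ITGAV, the collagens COL1A1, COL1A2, COL4A1, COL4A2, COL6A1, COL6A2 and COL6A3, and the matrix glycoproteins TNC, THBS1, THBS2, FN1, SPARC and TGFBI. They also include the proteases and protease regulators MMP1, MMP2, MMP14, TIMP1, TIMP2, SERPINE2, PLAU and PLAUR, the adhesion receptors CD44 and MCAM, the collagen cross-linking enzyme LOXL2, the intermediate filament gene VIM, and TGFB1 and TGFBR2 of the TGF-beta pathway.

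Both RNA-seq groups were the established human melanoma line 501Mel. One group received the small interfering RNA siIRF4, aimed at the transcription factor IRF4 (interferon regulatory factor 4), and the other received the control siCTRL, with 3 libraries each. Time after transfection and siRNA dose are not given in the sources used here. Nothing in the labels says that the 3 libraries of a group came from separate cultures, so the spread between them may be technical. The study also holds ChIP-seq of eGFP-tagged IRF4, whose peak lists carry hg19 contig names and were not placed at these genes.

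Melanoma cells can move along an axis from a melanocytic state, driven by MITF and SOX10, through a neural crest-like state marked by NGFR, to an undifferentiated state in which AXL, EGFR and WNT5A are high. In the last state cells make more integrins, collagens and matrix proteases and tend to be more invasive. SOX9 is a transcription factor that is often high where SOX10 is low, and TIMP3 is a matrix-bound inhibitor of metalloproteinases.

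Library totals ran from 129989698 to 203758441 estimated counts. The level of IRF4 was not analysed here, for want of a named transcript, so the siRNA labels were not checked on their target; nor were melanocytic markers, so the cell line was not checked on its own genes. The libraries siIRF4 replicate 1 and siCTRL replicate 2 stood nearer to the other label than to their own. On the first principal component of the 83831 transcripts that passed the filter on low counts, which carried 33.6% of the variance, siIRF4 replicate 1 lay at -111, beside siCTRL replicates 1 and 3 at -128 and -173. The library siCTRL replicate 2 lay at 132, between siIRF4 replicate 3 at 80.8 and siIRF4 replicate 2 at 199. The first component also placed same-numbered libraries together for replicate 1 (both negative) and replicate 2 (both positive). The replicate 3 libraries had opposite signs. By chi-square over its degrees of freedom, siIRF4 replicate 2 and siCTRL replicate 2 were the closest pair, at 38.6. The closest to siIRF4 replicate 1 was siCTRL replicate 1, at 44.0, while the replicate 3 libraries stood at 97.6. Whether siIRF4 replicate 1 and siCTRL replicate 2 had exchanged labels, or same-numbered libraries were handled together, was not tested. Every group mean, fold change and spread below follows the labels, and the fold changes, the overlap of the groups and the spread within groups are also given without these 2 libraries.

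The 6 transcripts differed widely in level. On the TPM scale, which divides by transcript length and so allows genes to be ranked, the means over 6 libraries were 7.45 for TIMP3, 2.08 for NGFR, 0.873 for WNT5A, 0.228 for AXL and 0.00596 for EGFR, with SOX9 lowest. TIMP3 and NGFR had a mean of at least 1 TPM, and WNT5A reached 1 TPM in some libraries. AXL, EGFR and SOX9, 3 of the 6, stayed under 1 TPM in every library. The lowest TIMP3 value, 5.39 TPM, lay above the highest NGFR value, 4.51 TPM. The NGFR values spanned those of WNT5A, so these neighbours cannot be ordered beyond the spread of NGFR. NGFR exceeded AXL in each of the 6 libraries, although its lowest value, 0.101 TPM, lay under the highest AXL value. The lowest WNT5A value, 0.597 TPM, exceeded the highest AXL value, 0.485 TPM, and the lowest AXL value, 0.0671 TPM, exceeded the highest EGFR value, 0.0143 TPM. These are levels of 1 transcript per gene. Other isoforms were not summed.

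**Figure D1:**
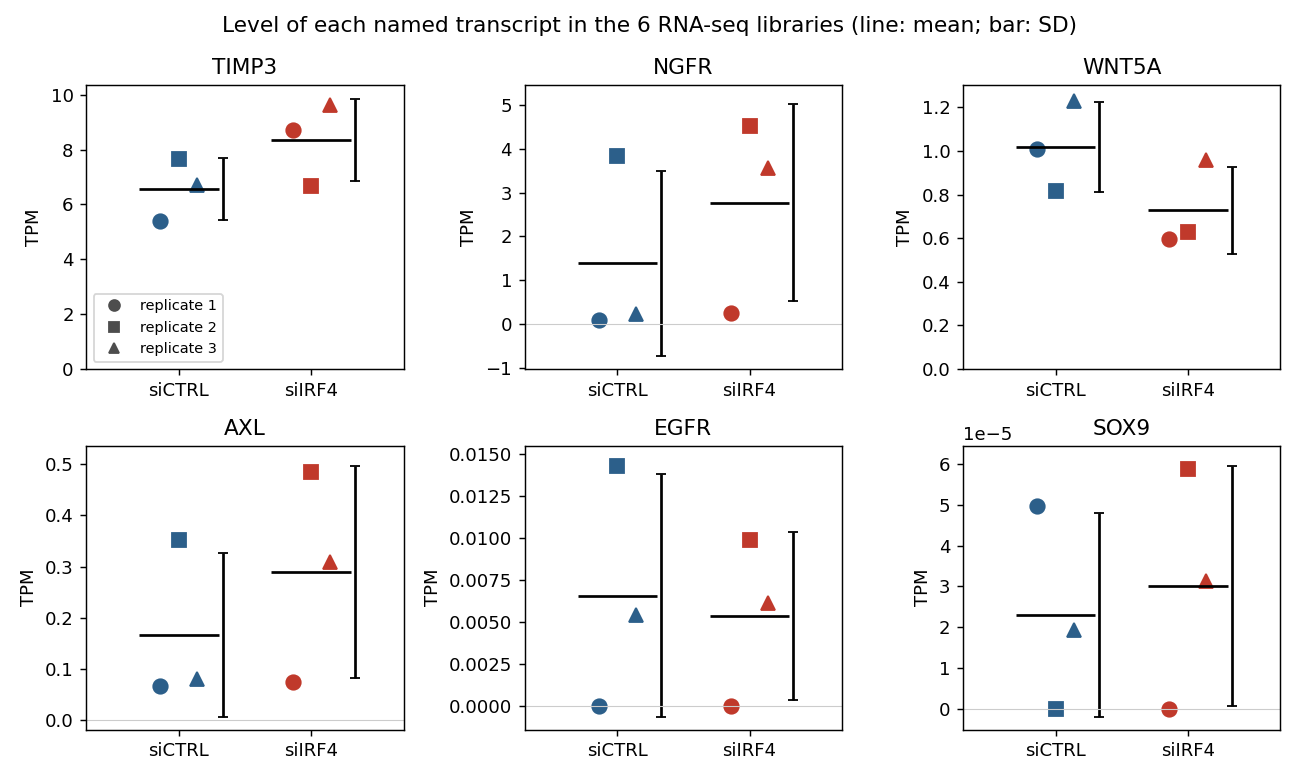
TPM of the 6 named transcripts (vertical axes, linear, 1 panel each) in siCTRL and siIRF4 libraries; marker shapes give the replicate, lines the mean and bars the SD (n = 3). NGFR and AXL are high in siIRF4 replicates 2 and 3 and siCTRL replicate 2, while TIMP3 and WNT5A spread less; the SOX9 axis is in units of 1e-05 TPM.

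NGFR, the low-affinity neurotrophin receptor and a marker of neural crest-like melanoma cells, had the widest range. In siIRF4 replicates 1, 2 and 3 it had 0.247, 4.51 and 3.55 TPM, from 77, 1401 and 1188 counts. In siCTRL replicates 1, 2 and 3 it had 0.101, 3.82 and 0.227 TPM, from 34, 1725 and 67 counts. High values stood in 2 siIRF4 libraries and 1 siCTRL library, low values in the other three, and the groups overlapped.

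Counting error was small beside these gaps. The 95% Poisson interval of the NGFR count was 60.8 to 96.2 in siIRF4 replicate 1 and 1645 to 1808 in siCTRL replicate 2. The highest value was 18.2 times the lowest within siIRF4 and 37.9 times the lowest within siCTRL. The NGFR counts were whole numbers (within 0.001) in all 6 libraries, so the authors' estimate did not divide its fragments with other listed transcripts. Such intervals cover counting error only.

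The group means of NGFR were 2.77 ± 2.24 TPM (SD, n = 3) in siIRF4 and 1.38 ± 2.11 TPM in siCTRL. In edgeR's quasi-likelihood test its log2 fold change, siIRF4 over siCTRL, came to 0.99 (SE 1.46) at an adjusted p of 1.00. That difference was smaller than the SD of NGFR's log2 CPM within groups, 2.50. The 2 siIRF4 libraries and 2 siCTRL libraries that remain without siIRF4 replicate 1 and siCTRL replicate 2 gave a log2 fold change of 4.60 (SE 0.51), with an edgeR adjusted p of 0.113. The libraries left out are the ones in which NGFR departs from its group, so this fit is a description and not a separate test. Without siCTRL replicate 2 alone, the log2 fold change was 4.06 (SE 1.30, edgeR adjusted p of 0.936). Without siIRF4 replicate 2 it was 0.38 (SE 1.69, edgeR adjusted p of 1.00).

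AXL, a receptor tyrosine kinase bound by the ligand GAS6 and a marker of the undifferentiated state, was high and low in the same libraries as NGFR, at a lower level. In siIRF4 replicates 1, 2 and 3 it had 0.0744, 0.485 and 0.309 TPM. In siCTRL replicates 1, 2 and 3 it had 0.0671, 0.351 and 0.0814 TPM. The groups overlapped, with siIRF4 replicate 1 among the low values and siCTRL replicate 2 among the high ones.

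The AXL counts were between 32.2 and 34.0 in the 3 low libraries and between 147 and 225 in the 3 high ones. None of these estimates was whole, so fragments were shared out between this transcript and others. AXL varied 6.52-fold within siIRF4 and 5.24-fold within siCTRL, less than NGFR, and the ratio of NGFR to AXL in TPM was 9.30 to 11.5 in the 3 high libraries and 1.50 to 3.32 in the 3 low ones. Pearson's r between AXL and NGFR on log2(TPM + 1) was 0.98 over the 6 libraries, as a description; the libraries fall into separate clusters, which alone can set such a value. AXL gave -0.41 with WNT5A and 0.23 with TIMP3.

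AXL means were 0.289 ± 0.206 TPM (SD, n = 3) in siIRF4 and 0.167 ± 0.160 TPM in siCTRL. Its fitted log2 fold change came to 0.79 (SE 0.87), and edgeR gave an adjusted p of 1.00. Without siIRF4 replicate 1 and siCTRL replicate 2 it came to 2.41 (SE 0.45), where the edgeR adjusted p stood at 0.158. AXL too departs from its group in those libraries, so that fit is a description and not a separate test. Leaving out siCTRL replicate 2 alone gave 1.96 (SE 0.82), siIRF4 replicate 1 alone 1.24 (SE 0.81), siIRF4 replicate 2 alone 0.15 (SE 0.94), siCTRL replicate 1 alone 0.42 (SE 0.94) and siCTRL replicate 3 alone 0.47 (SE 0.98).

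**Figure D2:**
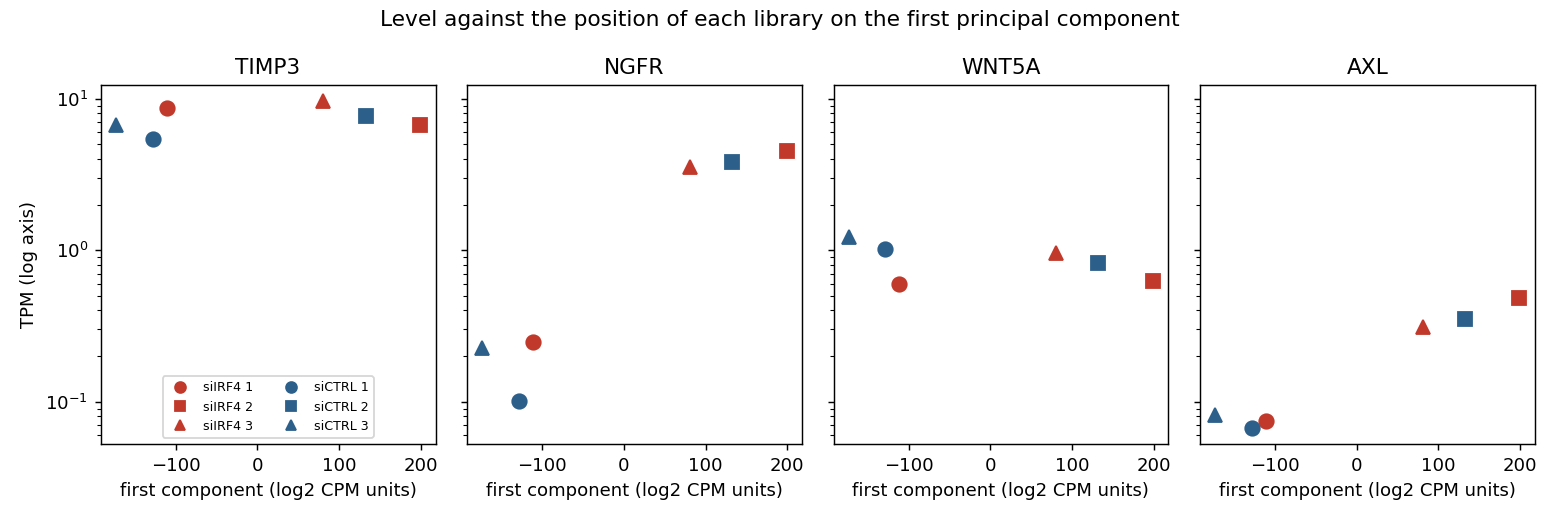
TPM (vertical axis, log scale) of TIMP3, NGFR, WNT5A and AXL against the position of each library on the first principal component of all tested transcripts (horizontal axis). The 3 libraries above 0 on that axis, siIRF4 replicates 2 and 3 and siCTRL replicate 2, hold the NGFR values of 3.55 to 4.51 TPM and the AXL values of 0.309 to 0.485 TPM.

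The libraries high in NGFR and AXL were those above 0 on the first component, and the libraries low in both were those below 0. The part of this pattern in the comparison of the siRNA groups was not tested.

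TIMP3 was the most abundant of the 6 transcripts and varied least. In siIRF4 replicates 1, 2 and 3 it had 8.71, 6.69 and 9.61 TPM, from 3736, 2864 and 4421 counts, all whole. In siCTRL replicates 1, 2 and 3 it had 5.39, 7.64 and 6.70 TPM, from 2506, 4753 and 2718 counts. The groups overlapped only through siIRF4 replicate 2, which lay below siCTRL replicates 2 and 3.

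The TIMP3 means were 8.34 ± 1.50 TPM (SD, n = 3) in siIRF4 and 6.57 ± 1.13 TPM in siCTRL, with a 1.44-fold range inside siIRF4 and a 1.42-fold range inside siCTRL. The fitted log2 difference was 0.33 (SE 0.19), at an edgeR adjusted p of 1.00 and an unadjusted p of 0.122. It was 0.39 (SE 0.21, edgeR adjusted p of 0.550) without siIRF4 replicate 1 and siCTRL replicate 2. TIMP3 did not share the order of NGFR and AXL: siIRF4 replicate 1, low in both receptors, had the second-highest TIMP3 value. Without siCTRL replicate 1 its log2 fold change was 0.21 (SE 0.19).

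WNT5A, a secreted ligand of non-canonical Wnt signalling that promotes melanoma cell motility, was the only one of the 4 tested with a lower fitted level in siIRF4. In siIRF4 replicates 1, 2 and 3 it had 0.597, 0.626 and 0.958 TPM. In siCTRL replicates 1, 2 and 3 it had 1.01, 0.818 and 1.23 TPM. The highest siIRF4 value lay above the lowest siCTRL value, so the groups overlapped.

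WNT5A means were 0.727 ± 0.200 TPM (SD, n = 3) in siIRF4 and 1.02 ± 0.206 TPM in siCTRL. The fitted log2 fold change stood at -0.51 (SE 0.26), at an edgeR adjusted p of 1.00 and an unadjusted p of 0.0937. Without siIRF4 replicate 1 and siCTRL replicate 2 it was -0.54 (SE 0.27, edgeR adjusted p of 0.524). On log2(TPM + 1), a scale that shrinks low values, it was -0.23 (SE 0.17). The estimated counts behind it, 349 to 695 per library, were fractional in all 6 libraries.

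EGFR, the epidermal growth factor receptor, was close to the detection floor in its named transcript. It was listed at 0 in siIRF4 replicate 1 and siCTRL replicate 1, where the floor of 3 counts used here corresponds to 0.00317 and 0.00292 TPM. The other libraries had 9.38 and 6.22 counts in siIRF4 replicates 2 and 3, and 19.7 and 4.85 counts in siCTRL replicates 2 and 3. The groups overlapped. EGFR did not pass the filter on low counts; without a filter its log2 fold change was -0.39 (SE 1.60, edgeR adjusted p of 1.00). Without siIRF4 replicate 1 and siCTRL replicate 2 as well, a fit added after the data were seen, the direction turned, to 1.43 (SE 1.86, edgeR adjusted p of 0.872).

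SOX9 had an estimated count of at most 0.0213 in any library, so it was not detected in its named transcript. In these libraries 3 counts of SOX9 would be 0.00571 to 0.00874 TPM. No fold change is given for SOX9, as both groups lie under that floor.

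Of the 6 transcripts, 4 were tested and 0 passed an edgeR adjusted p of 0.05, against 0 of 83831 transcripts in all (0%). Without adjustment, 1791 of the 83831 (2.14%) had an edgeR p under 0.05, and 0 of the 4 did. DESeq2 called 192 of 102158 transcripts (0.188%), limma-voom called 0 and limma on log2(TPM + 0.1) called 8, none of which was 1 of the 6. The groups did not overlap in CPM for 5962 of the 83831 transcripts tested (7.11%). They overlapped in both CPM and TPM for all 6 here, of which EGFR and SOX9 did not pass the filter. Among the 4 tested, 3 had a positive log2 fold change and 1 a negative one, with a median of 0.56, where the median over all tested transcripts was -0.0064. The median of the 4 rested on single libraries: it was 0.26 without siIRF4 replicate 2, 0.31 without siCTRL replicate 1, 1.21 without siCTRL replicate 2 and 1.40 without siIRF4 replicate 1 and siCTRL replicate 2. Without siIRF4 replicate 1 and siCTRL replicate 2, edgeR called 0 of 85498 transcripts (0%). Of these, 10811 (12.6%) had an unadjusted edgeR p under 0.05, NGFR and AXL among them. Those libraries stood nearer to the other label in these same data, so the counts without them are a description and not a separate test. With 2 libraries against 2, the groups did not overlap in CPM for 39208 of the 85498 transcripts (45.9%). Among them were NGFR, AXL and TIMP3, higher in siIRF4, and WNT5A, lower in siIRF4. EGFR, not counted there because it did not pass the filter, also had no overlap and was higher in siIRF4. For TIMP3 the gap between the groups lay between 21.1 and 20.9 CPM, and its TPM values still overlapped.

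**Figure D3:**
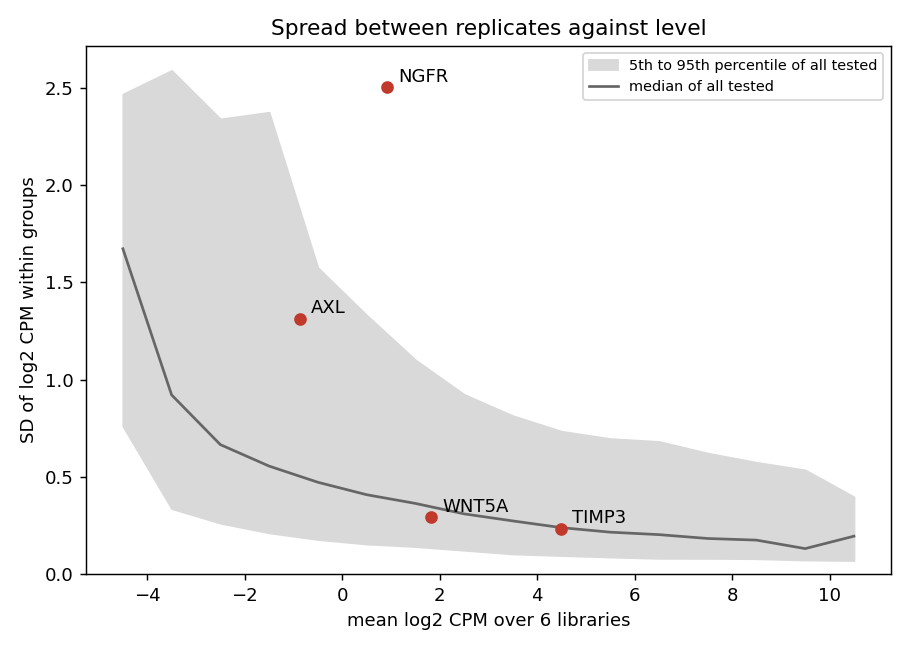
SD of log2 CPM within groups (vertical axis) against mean log2 CPM over 6 libraries (horizontal axis); the line and band give the median and the 5th to 95th percentiles of all tested transcripts in bins of 1 log2 unit. NGFR, at an SD of 2.50, lies above the band, AXL lies inside its upper part, and WNT5A and TIMP3 lie near the median line.

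The spread between replicates separated these 4 transcripts. NGFR had an SD of log2 CPM within groups of 2.50, and 2.73% of the transcripts tested had a larger one. Transcripts in its bin of mean level had a median SD of 0.409 and a 95th percentile of 1.33. AXL had an SD of 1.31, against a median of 0.473 and a 95th percentile of 1.58 in its bin. WNT5A, at 0.292, and TIMP3, at 0.234, were below the median of 0.489 over all transcripts tested. Without siIRF4 replicate 1 and siCTRL replicate 2, the SD was 0.621 for NGFR, 0.415 for AXL, 0.276 for WNT5A and 0.251 for TIMP3. The median over all transcripts tested was then 0.376. NGFR and AXL depart from their groups in the libraries left out, so a smaller SD for them follows from leaving these out.

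**Figure D4:**
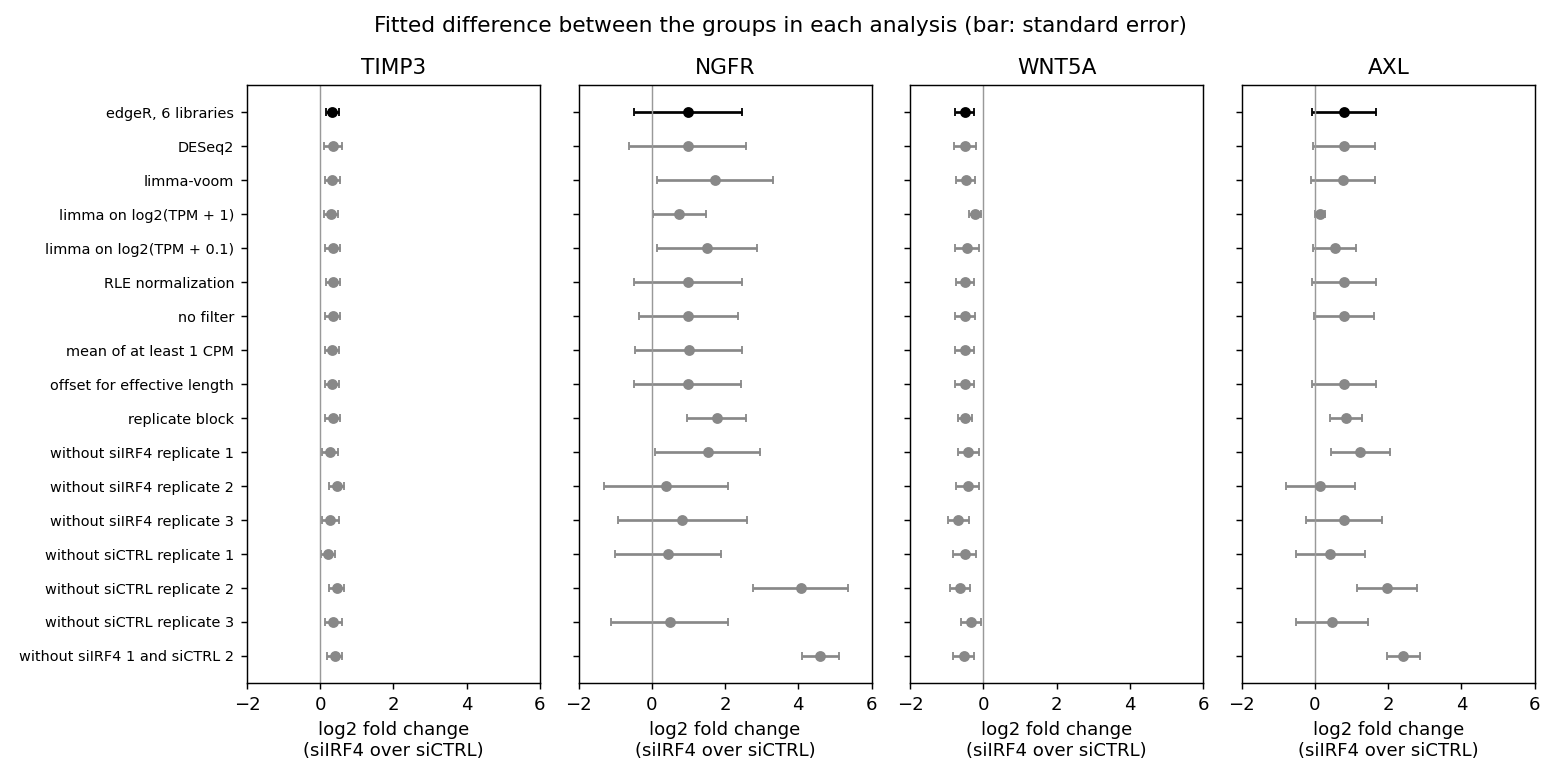
Log2 fold change, siIRF4 over siCTRL (horizontal axis), with its standard error (bars), for TIMP3, NGFR, WNT5A and AXL in each analysis (vertical axis). The black points are the edgeR fit of 6 libraries. NGFR moves from 0.99 to 4.60 and AXL from 0.79 to 2.41 when siIRF4 replicate 1 and siCTRL replicate 2 are left out. NGFR and AXL depart from their groups in those libraries. TIMP3 stays between 0.21 and 0.45.

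Promoter sequences of the set were read for the binding motifs of IRF4 and of AP-1, a factor long tied to the invasive state. RefSeq promoter windows (GRCh38.p14), from 250 bases before to 50 after a start site, were matched by symbol for 28 of the 39 genes, in 36 windows. Among the 6 genes with a named transcript, AXL, EGFR, TIMP3 and WNT5A had windows. The sequences below are the 250 bases before the start for AXL, WNT5A and TIMP3, the genes with a window whose named transcript passed the filter on low counts. For WNT5A the upstream of 2 windows is shown, as neither holds a match. They are shown because AXL moved between libraries while TIMP3 and WNT5A varied little. NGFR, which had the widest range, had no window, and a link between any motif and these movements was not tested. Capitals mark a match to the interferon-stimulated response element (GAAA, any 2 bases, GAAA), to the composite element of ETS factors and IRF4 (GGAA, any 2 bases, GAAA), or to the AP-1 site (TGANTCA), on either strand. Which start site the named transcripts use was not checked.
AXL, upstream start, chr19:41218973-41219222, plus strand: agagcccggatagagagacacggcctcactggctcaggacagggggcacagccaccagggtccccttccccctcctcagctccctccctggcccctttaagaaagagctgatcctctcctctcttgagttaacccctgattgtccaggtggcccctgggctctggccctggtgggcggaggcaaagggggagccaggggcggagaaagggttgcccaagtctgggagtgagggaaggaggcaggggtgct
AXL, downstream start, chr19:41226505-41226754, plus strand: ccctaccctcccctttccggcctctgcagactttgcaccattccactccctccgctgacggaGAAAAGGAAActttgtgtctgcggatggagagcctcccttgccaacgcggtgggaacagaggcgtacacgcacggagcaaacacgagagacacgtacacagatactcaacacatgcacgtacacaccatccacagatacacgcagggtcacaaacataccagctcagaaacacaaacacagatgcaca
WNT5A, upstream start, chr3:55487307-55487556, minus strand: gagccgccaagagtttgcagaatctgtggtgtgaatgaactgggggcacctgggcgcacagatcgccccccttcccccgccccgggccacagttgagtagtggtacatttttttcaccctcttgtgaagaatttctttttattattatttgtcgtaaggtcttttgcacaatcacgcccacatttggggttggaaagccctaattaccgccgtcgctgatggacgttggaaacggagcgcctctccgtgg
TIMP3, chr22:32801455-32801704, plus strand: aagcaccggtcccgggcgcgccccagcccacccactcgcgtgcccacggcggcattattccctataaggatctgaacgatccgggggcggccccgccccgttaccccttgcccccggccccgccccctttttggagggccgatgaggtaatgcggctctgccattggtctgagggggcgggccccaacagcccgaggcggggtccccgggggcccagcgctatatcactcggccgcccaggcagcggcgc

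The single match to the interferon-stimulated response element in the set was GAAAAGGAAA in the downstream AXL window, from 188 to 179 bases before the start site. That is 1 of 36 windows of the set (2.78%), against 3.57% of all 35116 windows. The composite element was in 0 of the 36 windows, against 2.82% of all. These motifs differ only in their first repeat, so the same stretch cannot match both in full. TGANTCA was in 4 of the 36 windows (11.1%), those of EGFR, ITGA5, PLAUR and TGFBR2, against 7.71% of all. EGFR had 2 matches, both in the window of its downstream start. These are matches of letters in a short window and not measured binding sites.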

How the data were processed

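Polyadenylated RNA of 501Mel cells was measured in 3 siIRF4 and 3 siCTRL libraries, grouped by sample title. The authors deposited 1 table per library with estimated counts and TPM for each Ensembl transcript. The columns are those kallisto writes, per the file headers, and the submitters' processing notes name kallisto and sleuth and the builds GRCh38 and hg19 without versions or roles; the annotation is not given in the sources used here. The deposited length and effective length, in bases and other than a measurement, served for the length offset. Kallisto divides fragments between isoforms, which adds to a transcript's error.

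The genes and lists were chosen with earlier results of these data known. Tests had been planned on gene sums; with no transcript-to-gene table used here they were run per transcript, and IRF4, the related gene lists, cell type markers and IRF4 peaks were not analysed. Estimated counts were rounded and tested with edgeR 4.0.16 (quasi-likelihood, TMM, filterByExpr, two-sided, Benjamini-Hochberg over all transcripts tested, threshold 0.05) in R 4.3.3. The filter retained 83831 transcripts holding 99.9% of the counts. Standard errors of edgeR fits are the absolute log2 fold change over the square root of F. Those of limma are the log2 fold change over its t statistic, and DESeq2 gave its own. Components were taken of log2 CPM (prior count 2). No library copied another: chi-square over its degrees of freedom never fell under 38.6 in a pair. Alternatives used DESeq2 1.42.0 and limma 3.58.1, other normalization and filters, a length offset, the replicate number and leaving out libraries. The edgeR code was tested on simulated counts. Their spread was set below the common spread of these data, so that test does not show how many true changes would be found here. By the rule for named genes, each of the 6 transcripts is given library by library.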

Additional observations from a re-analysis of the deposited data

How the results depend on the processing

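The count of 0 transcripts called between siIRF4 and siCTRL stayed at 0 in 14 of 16 alternatives; DESeq2 gave 192 and limma on log2(TPM + 0.1) gave 8, and the cause was not tested. It was 0 in each of the 6 fits that left out 1 library, with 1575 to 4301 transcripts at an unadjusted p under 0.05. The count of called members was 0 in all 16. The log2 fold changes of the 4 tested transcripts retained their signs wherever fitted: 0.21 to 0.45 for TIMP3, 0.38 to 4.60 for NGFR, -0.69 to -0.23 for WNT5A (16 alternatives each) and 0.14 to 2.41 for AXL (15, as AXL has under 1 CPM on average). With the replicate number as a block, 0 transcripts and 0 members were called, while 2746 transcripts had an unadjusted edgeR p under 0.05. NGFR then had a log2 fold change of 1.77 (SE 0.79) and AXL 0.85 (SE 0.44). TIMP3 had 0.34 (SE 0.20) and WNT5A -0.51 (SE 0.20). All 4 had an edgeR adjusted p of 0.997. In TPM, siIRF4 lay above siCTRL of the same number each time for NGFR and AXL, and below it each time for WNT5A. TIMP3 was lower in siIRF4 for replicate 2 only. The share of all transcripts with 1 direction throughout was not counted, so these directions cannot be read as particular to these transcripts. Deviations from the group mean, over all tested transcripts, correlated between same-numbered libraries at Pearson's r of 0.20, 0.24 and 0.038 for replicates 1, 2 and 3. Libraries of unlike number were not compared in this way. The main fit did not take the numbers as pairs, because the series text gives no block. Whether same-numbered libraries were handled together was not tested. In edgeR, EGFR was fitted without a filter only, and went from -0.39 to 1.43 without siIRF4 replicate 1 and siCTRL replicate 2. DESeq2, on all 6 libraries, gave EGFR a log2 fold change of -0.40 (SE 2.03). The median of the 4 tested ran from 0.22 to 1.40. A fit left with 2 libraries in a group rests on few degrees of freedom. Sums over transcripts, gene-level tests and peak windows were not run. At this depth SOX9 lay under 3 counts in all 6 libraries and EGFR in 2, and whether depth or the use of other isoforms sets this was not tested.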
